A study of Mus musculus with 20 samples.

Results

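The ID proteins and the feedback genes of the BMP and TGF-beta pathways were described in mouse embryonic fibroblasts (MEFs), primary connective tissue cells taken from embryos at 13.5 days post coitum. The 9 genes are Id1, Id2, Id3, Id4, Smad6, Smad7, Bmp4, Bambi and Tgfb1i1. All of their probe sets with 1 gene symbol were taken, which gave 13 of the 20380 such probe sets on the array, and 9 of the 12393 genes. E2F4 is a member of the E2F family that mostly represses cell cycle genes, and 10 E2F4 null cultures came from 5 embryos, with 2 cultures each. The other 10 cultures were wild type and came from 3 embryos, with 3 to 4 cultures each. RNA of each culture was measured on 1 Affymetrix array, and values are MAS5 signals, a linear measure of probe brightness scaled within each array. Differences are log2(signal + 16), E2F4 null minus wild type, on embryo means. The embryo, read from the first number of the sample titles, was the replicate, and p-values measure the spread between these embryos or their cultures. The labels give no strain, sex, litter or passage, and do not say which part of E2f4 was removed.

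The genes were chosen by the Id1 signal, known to be lower in the null on these arrays, to ask whether other BMP and SMAD targets share that. The difference between genotypes is therefore given for them as a description with its spread, and no test of it is used. Their differences among embryos of 1 genotype were not part of that choice and were tested.

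BMP ligands bind receptor kinases that phosphorylate SMAD1, SMAD5 and SMAD9, which enter the nucleus with SMAD4. The Id genes are among the best known direct targets of this signal. ID proteins are helix-loop-helix proteins without a DNA-binding region. They pair with E proteins such as TCF3 and keep them from acting on differentiation genes. The same signal, and the TGF-beta signal through SMAD2 and SMAD3, switch on their own inhibitors. SMAD6 and SMAD7 are inhibitory SMADs that act at the receptors, and BAMBI is a membrane pseudoreceptor without a kinase.

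RefSeq promoter windows of GRCm38.p6, which run from 250 bases before to 50 after the start, matched 5 of the 9 genes, namely Id2, Id3, Id4, Smad6 and Bmp4. The stretches before the start of Id3 and Id2 are shown because these were the other ID genes whose signal, by the brightest probe set, varied most like that of Id1. The stretch at the start of Smad6 is shown because it holds a SMAD palindrome. Capitals mark matches, on either strand, to GTCTAGAC (the SMAD palindrome), GGCGCC (a GC-rich SMAD site), TTTGAA (the CHR element of cell cycle genes, to which complexes with E2F4 bind), CCAAT, and the E2F sites TTTCCCGC and TTTGGCGC.
Id3, chr4:136143572-136143821, plus strand: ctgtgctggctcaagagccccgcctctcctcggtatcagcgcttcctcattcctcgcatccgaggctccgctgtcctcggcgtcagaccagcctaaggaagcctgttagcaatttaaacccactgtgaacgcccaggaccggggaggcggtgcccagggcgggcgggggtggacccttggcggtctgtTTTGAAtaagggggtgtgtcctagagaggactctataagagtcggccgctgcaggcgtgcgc
Id2, chr12:25096093-25096342, minus strand: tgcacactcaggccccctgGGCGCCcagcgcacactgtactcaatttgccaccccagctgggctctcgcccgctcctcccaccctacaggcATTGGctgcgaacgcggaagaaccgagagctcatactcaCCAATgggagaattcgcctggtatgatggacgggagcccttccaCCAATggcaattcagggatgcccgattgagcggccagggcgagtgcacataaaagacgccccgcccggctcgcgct
Smad6, chr9:64022050-64022109, minus strand: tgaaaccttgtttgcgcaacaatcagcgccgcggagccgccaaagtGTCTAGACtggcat

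Counted from the start, the TTTGAA of Id3 began at -62. Id2 held GGCGCC at -231 and CCAAT, on either strand, at -159, -120 and -76. Id4 held GGCGCC at -148 and CCAAT at -240 and -198. The GTCTAGAC of Smad6 spanned -4 to 4, and a CCAAT began at 25. The Bmp4 window held none of these letters. Of all 32851 windows, 0.213% held GTCTAGAC, 11.9% GGCGCC, 17.9% TTTGAA, 37.4% CCAAT, 1.07% TTTCCCGC and 0.514% TTTGGCGC. None of the 5 windows held either E2F site. TTTGGCGC and GGCGCC can overlap each other, which none of these matches did.

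Id1, which is represented by 1 probe set, was lower in every null culture than in every wild type culture. Its signal per embryo, as the mean of the cultures, was 857, 1258, 909, 763 and 904 in null embryos 1 to 5, and 1666, 1471 and 1643 in wild type embryos 1 to 3. Null cultures ran from 756 to 1289 with a median of 880, and wild type cultures from 1408 to 1790 with a median of 1634. The embryo groups did not overlap, and null embryo 2 stood above the other null embryos. The means were 938 ± 188 (SD, n = 5) in null embryos and 1593 ± 107 (SD, n = 3) in wild type embryos, so the null mean was 41.1% lower. The log2 difference was -0.77 (SE 0.14), and it ran from -0.88 to -0.70 when each embryo was left out in turn. Only 14 of the 7436 genes tested had a lower difference.

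Id3 has 1 probe set, with a signal of 2410, 3369, 2402, 2458 and 2383 in null embryos 1 to 5, and 3849, 3145 and 3687 in wild type embryos 1 to 3. Null embryos 1, 3, 4 and 5 lay below all wild type embryos, and null embryo 2 lay above wild type embryo 2. The means were 2604 ± 429 (SD, n = 5) in null embryos and 3560 ± 368 (SD, n = 3) in wild type embryos, a log2 difference of -0.46 (SE 0.12). With each embryo left out it lay between -0.55 and -0.40.

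Id2 has 3 probe sets, and they gave different sizes. The brightest had 708, 1387, 949, 794 and 1000 in null embryos 1 to 5, and 1382, 937 and 1396 in wild type embryos 1 to 3, so the groups overlapped. Its log2 difference was -0.36 (SE 0.21). The next had 267, 448, 361, 407 and 333 in null embryos, and 631, 419 and 657 in wild type embryos. There 4 of the 5 null embryos lay below all wild type embryos, and the log2 difference was -0.61 (SE 0.18). The dimmest had 32.2 to 45.9 in null embryos and 34.6 to 69.4 in wild type embryos, with a log2 difference of -0.20 (SE 0.19). Over the 20 arrays the brighter 2 probe sets correlated at r = 0.69, and the dimmest with them at 0.49 and 0.55.

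Id4 has 3 probe sets, which correlated at r = 0.83 to 0.89 over the 20 arrays. The brightest had 347, 306, 671, 529 and 503 in null embryos 1 to 5, and 618, 431 and 716 in wild type embryos 1 to 3. Null embryos 1 and 2 lay below all wild type embryos, the other null embryos lay above wild type embryo 2, and the groups overlapped. The log2 difference was -0.34 (SE 0.25), and it was -0.21 (SE 0.30) and -0.35 (SE 0.22) by the other probe sets. For the probe set at -0.21, leaving out an embryo moved the value between -0.45 and 0.03. There null embryos 3, 4 and 5, at 304, 299 and 292, lay above the wild type mean of 275.

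The inhibitory SMADs differed by less. Smad6, which blocks BMP receptor signalling, had 317, 325, 357, 372 and 417 in null embryos 1 to 5, and 456, 340 and 481 in wild type embryos 1 to 3. Null embryos 1 and 2 lay below all wild type embryos and the others lay above wild type embryo 2. The log2 difference was -0.23 (SE 0.13). Smad7, which blocks both BMP and TGF-beta receptors, had 599, 654, 511, 486 and 544 in null embryos, and 693, 735 and 596 in wild type embryos. Null embryos 3, 4 and 5 lay below all wild type embryos, null embryos 1 and 2 did not, and the log2 difference was -0.27 (SE 0.11).

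**Figure D1:**
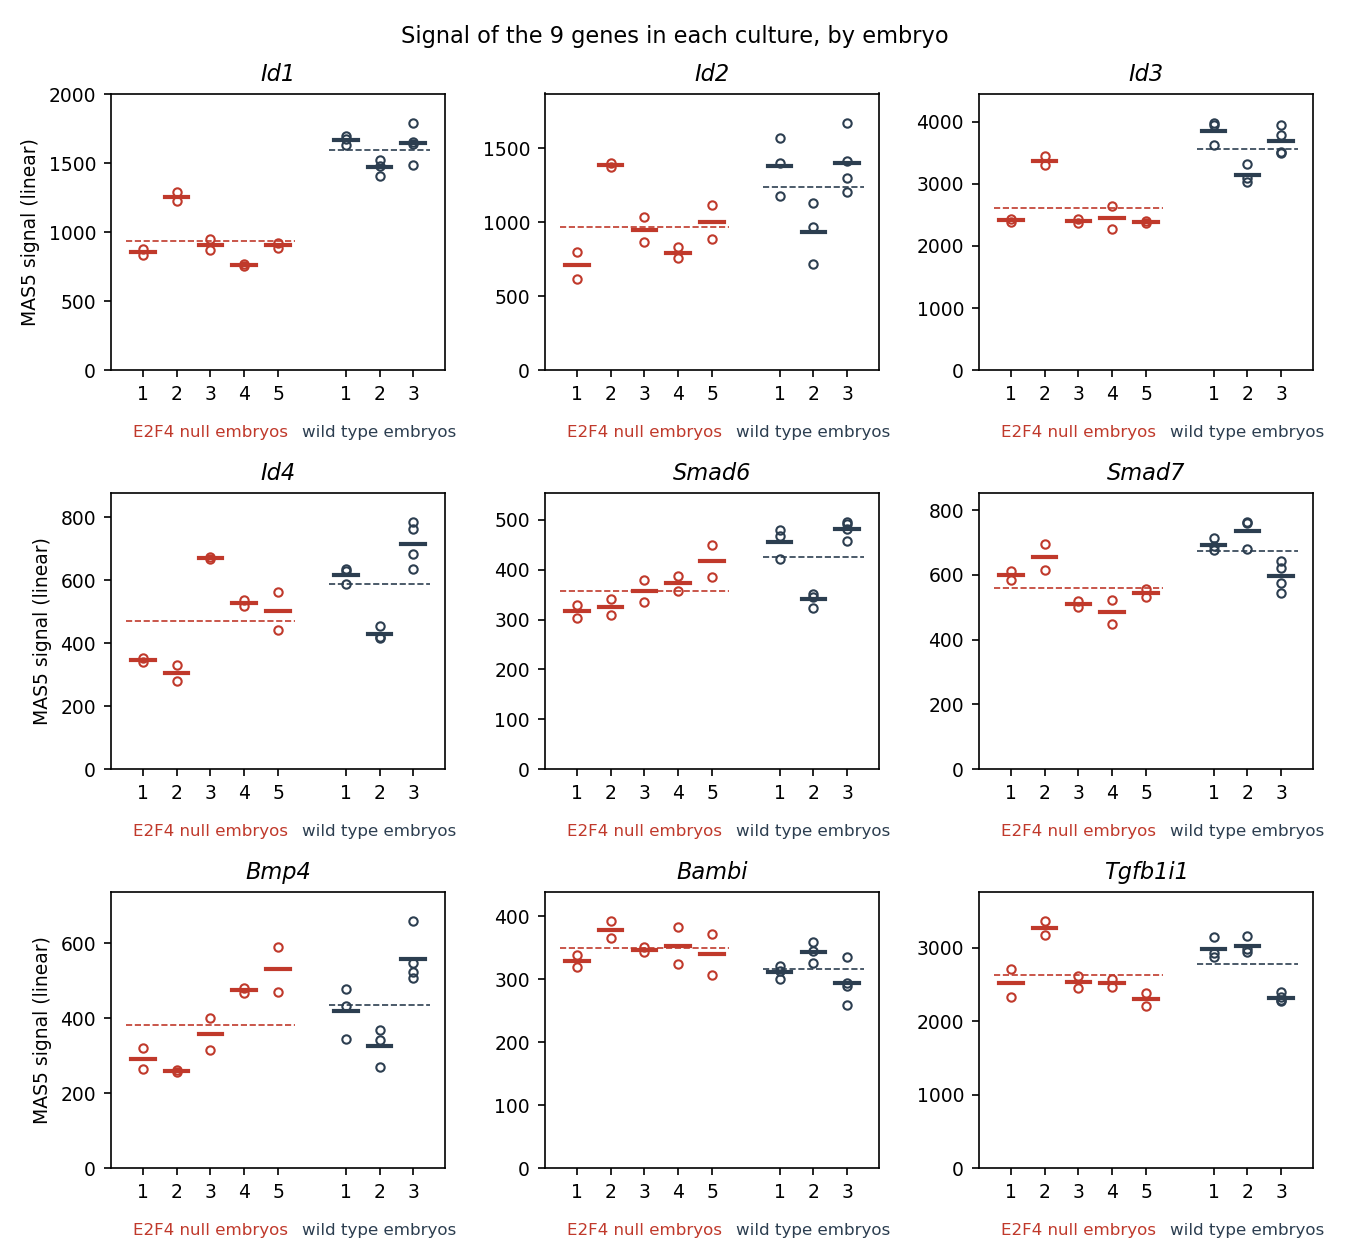
Signal of each of the 9 genes, by its brightest probe set, on a linear axis from 0. Circles are cultures, short bars embryo means and dashed lines genotype means, with the 5 E2F4 null embryos in red at left and the 3 wild type embryos at right. Id1 is the gene in which no null culture reaches a wild type culture.

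Bmp4, the ligand of the set, had 291, 259, 359, 475 and 531 in null embryos 1 to 5, and 419, 326 and 559 in wild type embryos 1 to 3. The groups overlapped over most of their range. The log2 difference was -0.19 (SE 0.24), and it lay between -0.37 and 0.01 with each embryo left out. Bambi was the member with a higher mean in the null, at 350 ± 18.6 (SD, n = 5) in null embryos and 316 ± 24.9 (SD, n = 3) in wild type embryos. Its embryo means ran from 329 to 379 in the null and from 294 to 343 in wild type, so the groups overlapped, with a log2 difference of 0.14 (SE 0.08). Tgfb1i1 encodes Hic-5, a paxillin-like focal adhesion protein that TGF-beta induces. It had 2516, 3264, 2533, 2521 and 2297 in null embryos, and 2980, 3029 and 2321 in wild type embryos. Its log2 difference was -0.08 (SE 0.12), with null embryo 2 highest and null embryo 5 lowest.

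Among the 9 genes by their brightest probe sets, 8 differences were below 0, with a median of -0.27, against 51.1% of genes and a median of 0.00 over all genes tested. The groups did not overlap for Id1 alone, against 3.71% of all genes with the null below wild type. In limma's fit on embryo means 0 of the 9 had an adjusted p under 0.05, against 0.0134% of all genes. Id1, Id3 and Smad7 had an unadjusted p under 0.05 on the lower side, against 4.75% of all genes. With every probe set in the fit 0 of the 13 passed, as did 0% of all. The 9 were chosen with this contrast known, so nothing is read from these counts.

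**Figure D2:**
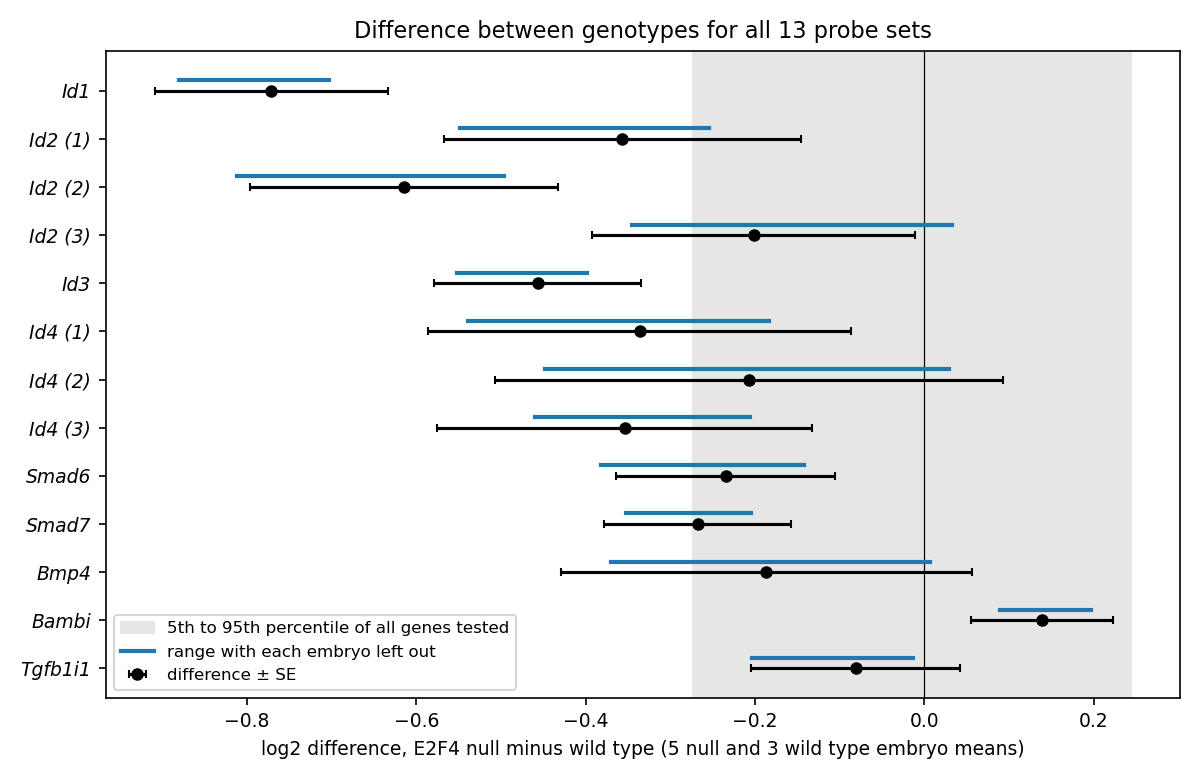
Difference between genotypes (log2, E2F4 null minus wild type) for the 13 probe sets, numbered within a gene from the brightest. Points are differences with their SE, blue lines the range with each embryo left out, and the grey band the 5th to 95th percentile of all genes tested (-0.27 to 0.24). Id1 lies farthest below 0 and Bambi is the probe set above it.

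The embryos of each genotype were then compared with one another, using the spread between cultures (F test in limma). Of the 9 genes, 7 differed among null embryos, against 22.9% of all genes, and 7 differed among wild type embryos, against 50.1% of all genes. Id2, Id3, Id4, Smad7, Bmp4 and Tgfb1i1 passed in both genotypes. Id4 and Bmp4 ranged widest among null embryos, over 1.10 and 0.98 on the log2 scale (limma adjusted p = 0.00013 and 0.00089), against a spread between cultures of 0.13 and 0.17 (SD). Among wild type embryos they ranged over 0.71 and 0.75 (limma adjusted p = 1.8e-05 and 0.00069).

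Id1 differed among null embryos, over a range of 0.71 with a spread between cultures of 0.05 (limma adjusted p = 0.00032). Its range among wild type embryos was 0.18 (limma adjusted p = 0.0624), and whether the genotypes differ in this was not tested. Without null embryo 2 the null call of Id1 was lost (adjusted p = 0.164), as were those of Id2 (0.105), Id3 (0.98), Smad7 (0.214) and Tgfb1i1 (0.55), and Id4 and Bmp4 passed among the other null embryos. That of Smad7 was also lost without null embryo 4 (0.0782), with no filter on low genes (0.0654) and in the fit of every probe set (0.0819). Smad6 passed among wild type embryos (range 0.48, limma adjusted p = 0.00025) and not among null embryos (range 0.38, adjusted p = 0.132). Bambi passed in neither (adjusted p = 0.707 and 0.147). Over all 7436 genes, 1704 were called among null embryos, and 990 without null embryo 2.
In wild type the calls also rested on few embryos. Without wild type embryo 2, those of Id2, Id3, Id4, Smad6 and Smad7 were lost (adjusted p = 0.952, 0.542, 0.118, 0.565 and 0.0704). Without wild type embryo 3, those of Bmp4, Tgfb1i1 and Smad7 were lost (0.0746, 0.774 and 0.417), and Id1 passed (0.0324). The wild type call of Smad7 was also lost with cultures 1 and 2 alone (0.328) and with a replicate block for the culture number (0.0617). Over all 7436 genes, 3722 were called among wild type embryos, 1121 without wild type embryo 2 and 2779 without wild type embryo 3.
In the fit on every probe set, the 2 other Id4 probe sets passed in both genotypes (limma adjusted p = 0.00041 to 0.0105), against 9.21% of all probe sets among null embryos and 28.2% among wild type embryos. The second Id2 probe set did so too (0.0367 among null and 0.0028 among wild type embryos). The dimmest passed among wild type embryos alone (0.00688, against 0.868 among null embryos).

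The embryos did not take the same order in all genes. In null embryo 2, Id1, Id2 and Id3 stood above the mean of its genotype by 0.44, 0.56 and 0.38 on the log2 scale, while Id4 stood below it at -0.54 and Bmp4 at -0.48. Smad7 and Tgfb1i1 stood above it there, by 0.23 and 0.32. Wild type embryo 2 was low in Id4 (-0.40), Bmp4 (-0.37), Smad6 (-0.30) and Id2 (-0.38), and high in Smad7 (0.13) and Tgfb1i1 (0.14). Null embryo 1 was low in Id4, Bmp4, Smad6 and Id2 as well, at -0.37, -0.33, -0.16 and -0.41.

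These 3 embryos, null 1, null 2 and wild type 2, also had the highest muscle marker signal. Of 7 skeletal muscle markers, summed signals ran from 425 to 3476 in null embryos and from 544 to 4246 in wild type embryos, and 2 of the 7, Acta1 and Des, passed the filter. The myogenic regulators Myod1 and Myf5 had embryo means of at most 30.3 and 10.7 in null embryos, and 29.6 and 9.8 in wild type embryos. Proliferation genes were low in the same 3 embryos, at -0.22, -0.20 and -0.47 from their genotype means, and fibroblast markers at -0.37, -0.30 and -0.53. Against the mean of all 8 embryos, the epithelial markers that passed the filter were also highest in these 3, at 0.69, 0.51 and 0.33, as were TGF-beta target genes at 0.16, 0.32 and 0.28 and neural and glial markers at 0.41, 0.10 and 0.19. The part of these shifts in the values of Id4, Bmp4 and Smad6 was not tested. In bulk cultures, fewer cells of a type and less RNA per cell cannot be told apart.

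**Figure D3:**
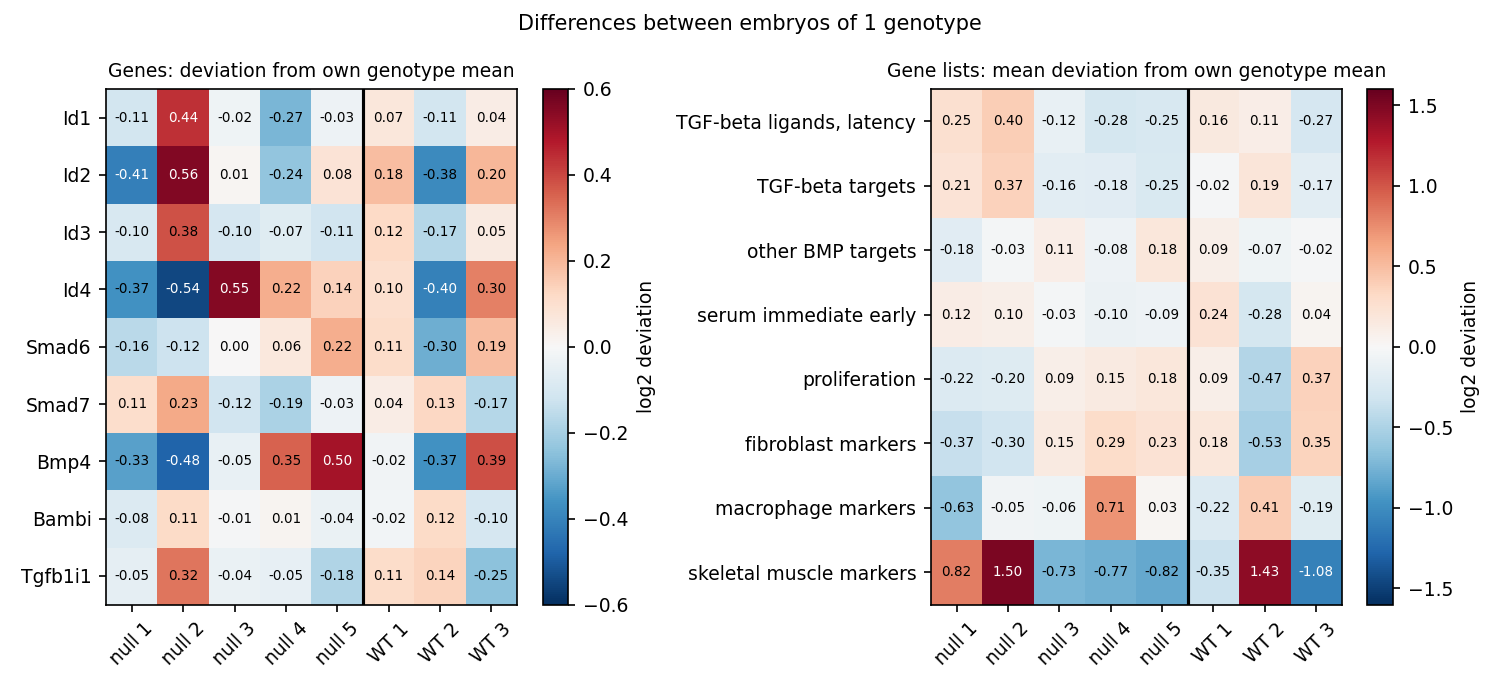
Deviation of each embryo from the mean of its own genotype (log2), for the 9 genes at left and for 8 gene lists at right, with the 5 null embryos before the 3 wild type embryos. Red is above and blue below the genotype mean, and the scales differ between the panels. In null embryo 2, Id1, Id2 and Id3 are above and Id4 and Bmp4 below their means.

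Whether the other genes varied with Id1 was tested on these deviations over the 8 embryos, by exact permutation of embryos within genotypes (720 arrangements, two-sided, 8 relations). Each gene stood by its brightest probe set, and the other probe sets of Id2 and Id4 were not tested in this way. Id2 had r = 0.87 (exact permutation p = 0.0222, adjusted p = 0.178) and Spearman's rho = 0.86 (exact permutation p = 0.0236, adjusted p = 0.189). Id3 had r = 0.89 (exact permutation p = 0.0569, adjusted p = 0.228) and rho = 0.69 (exact permutation p = 0.0917, adjusted p = 0.367). Neither passed after adjustment over the 8. Without null embryos 2 and 4, the 2 farthest from the median in Id1, r was 0.96 for Id2 and 0.88 for Id3, and both kept their sign with any 1 embryo left out (0.74 to 0.91 and 0.46 to 0.97). For Id2 these values hold for its brightest probe set alone. In the second, null embryo 4, lowest in Id1, had 407, above null embryos 1, 3 and 5 at 267, 361 and 333.

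The other 6 relations had r between -0.42 for Bmp4 and 0.57 for Smad7, rho between -0.17 for Bambi and 0.31 for Smad7, and adjusted p-values of 0.372 to 0.908 for r and 0.796 for rho (exact permutation). Of these, Id4 had r = -0.37, Smad6 -0.05, Bambi 0.32 and Tgfb1i1 0.56. Without null embryos 2 and 4 all 6 turned sign. Without null embryo 2 alone, all of these but Smad7 did. Smad7 ran from 0.0081 to 0.75 with any 1 embryo left out. The deviations of Bmp4, the ligand, thus gave no relation with Id1 that passed or kept its sign.

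Over the 8 embryo means themselves, which include the difference between genotypes, Id3 ranked 5 of 7435 genes in likeness to Id1, with Pearson's r = 0.95. The 4 genes before it were Selenow, a selenoprotein, at 0.98, Vkorc1, the vitamin K epoxide reductase, at 0.98, Macroh2a1, a histone variant, at 0.97, and Ankrd17, an ankyrin repeat protein, at 0.97. Their own log2 differences were -0.19, -0.31, -0.18 and -0.19. Vkorc1 had 1310 ± 94.2 (SD, n = 5) in null embryos and 1625 ± 86.7 (SD, n = 3) in wild type embryos. Smad7 ranked 155 (r = 0.79) and Id2 172 (0.78), while Smad6 was at r = 0.48, Tgfb1i1 at 0.45, Id4 at 0.20, Bmp4 at 0.03 and Bambi at -0.48. These values are descriptions of 8 embryos, whose arrays were all scaled to 1 mean.

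The other genes of the pathway were taken from 8 lists, which held 88 genes besides the 9. Of these, 75 had a probe set, 54 passed the filter and 0 were called by limma in either direction at an adjusted p under 0.05. At an unadjusted p under 0.05, 7 were lower in the null and 0 higher, where 4.75% of all genes were lower. Of the 54, 48 differences lay below 0 and 6 above, with a median of -0.13, against 51.1% of all genes below 0 and a median of 0.00. The count below 0 moved with the settings. It was 56 of 75 with no filter on low genes, and 37 of 40 with a 60th percentile filter. Dropping wild type embryo 1 gave 41 of the 54, and dropping wild type embryo 2 gave 39. A replicate block for the embryo number gave 40, and dropping any other embryo gave 45 or 46. The 51.1% was taken with the 40th percentile filter and all 8 embryos. The embryo groups separated for 0 of the 54, against 3.71% of all genes with the null below wild type. The lowest difference was that of Atoh8, a transcription factor gene that BMP signals induce in endothelial cells. It had 60.5 ± 27.8 (SD, n = 5) in null embryos and 116 ± 30.9 (SD, n = 3) in wild type embryos, which differ by -0.89 on the log2 scale (SE 0.33, limma adjusted p = 0.459). Its embryo means ran from 29.5 to 95.2 in the null and from 93.9 to 151 in wild type, a low signal with an overlap.

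Ligands came first. BMP ligands other than Bmp4 had 6 of 9 genes on the array and 0 past the filter, and their embryo means reached at most 70.1, in Bmp2. TGF-beta and activin ligands and their latency proteins had 12 of 13 genes on the array and 9 past the filter. Of these, 9 of 9 differences were under 0 (median -0.39), and 0 passed the test. Ltbp1, which tethers latent TGF-beta to the matrix, had 1322 ± 179 (SD, n = 5) in null embryos and 1799 ± 249 (SD, n = 3) in wild type embryos, a difference of -0.44 (SE 0.12, limma adjusted p = 0.363). Its relative Ltbp2 differed by -0.37 (adjusted p = 0.54). The activin subunit Inhba had the lowest difference of the list, at -0.64.

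For receptors and co-receptors past the filter, 7 of 8 differences were under 0 (median -0.10). The BMP receptor Bmpr2 had 145 ± 21.1 (SD, n = 5) in null embryos and 179 ± 6.75 (SD, n = 3) in wild type embryos, a difference of -0.29 (SE 0.12, limma adjusted p = 0.528), and Tgfbr2 differed by -0.15 (adjusted p = 0.61). The signalling SMADs had a median of -0.03 over 5 genes, and Smad5 differed by -0.10 and Smad3 by -0.17 (adjusted p = 0.813 and 0.844).

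All 6 secreted antagonists that passed the filter, of 10 on the array, had differences under 0 (median -0.26). The others, of low signal, lay on both sides of 0. Grem1, which binds and blocks BMP ligands, had 1840 ± 144 (SD, n = 5) in null embryos and 2500 ± 712 (SD, n = 3) in wild type embryos, a difference of -0.40 (SE 0.15, limma adjusted p = 0.476). Twsg1, a BMP binding protein, differed by -0.19 (adjusted p = 0.622). Intracellular modulators had a median of -0.09 over 8 genes, with the repressor Zeb1 at -0.19 and the SMAD corepressor Skil at -0.24 (adjusted p = 0.562 and 0.662).

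Besides the Id genes, 6 BMP target genes of 9 on the array passed the filter, with a median of -0.10. They ranged from Atoh8 at -0.89 to Msx1, a homeobox gene, at 0.46, and Hes1 differed by -0.16 (adjusted p = 0.645). TGF-beta target genes had a median of -0.11 over 12 genes, with Junb at -0.60 and the fibronectin gene Fn1 at -0.18 (limma adjusted p = 0.459 and 0.746).

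The partners of ID proteins that passed the filter differed little. Among these 5 bHLH genes, of 12 on the array, the median was -0.02, with Tcf12 at 0.06 and Tcf3 at -0.07 (limma adjusted p = 0.861 and 0.88). Tcf3 had 564 ± 15.9 (SD, n = 5) in null embryos and 601 ± 109 (SD, n = 3) in wild type embryos. Relatives and partners of Hic-5 in focal adhesions had a median of -0.06 over 7 genes, with Lims1 at -0.15 and the kinase Ptk2b at -0.42 (adjusted p = 0.588 and 0.595).

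**Figure D4:**
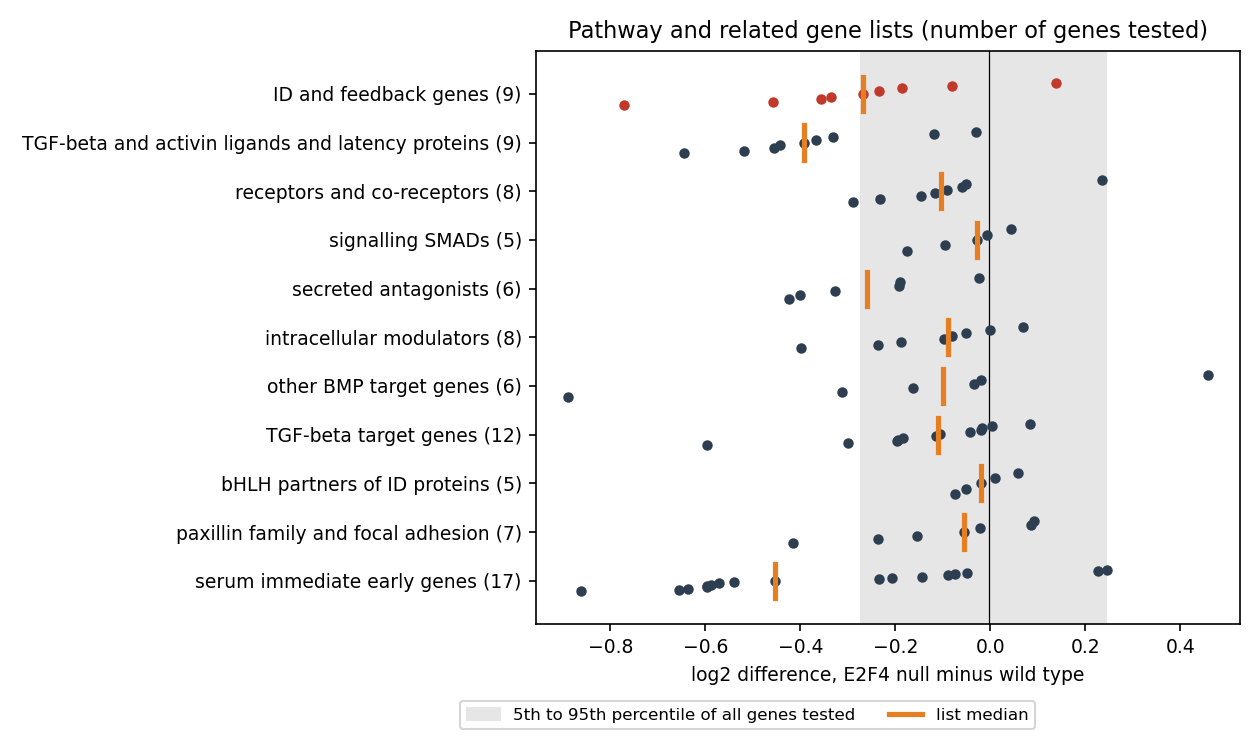
Log2 difference (E2F4 null minus wild type) of each gene tested, by list, with the number tested in brackets. Points are genes, orange lines list medians, and the grey band the 5th to 95th percentile of all genes. None of the genes drawn passed limma's adjusted test, and the list medians lie left of 0.

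The Id genes also respond to serum, so serum immediate early genes were set beside them. Differences under 0 were seen in 15 of 17 (median -0.45), against 51.1% of all genes. None passed limma's test, and 4 had an unadjusted p under 0.05, all lower, against 4.75% of all genes. Junb is among these and was also counted above with the pathway genes, as a TGF-beta target gene. The groups did not overlap, on the lower side, for 2 of the 17, against 3.71% of all genes. These were Zfp36, which destabilises cytokine mRNAs, at -0.59 (SE 0.15), and Btg2, an antiproliferative gene, at -0.86 (SE 0.24), with a limma adjusted p = 0.362 and 0.363. Btg2 had 422 ± 129 (SD, n = 5) in null embryos and 765 ± 168 (SD, n = 3) in wild type embryos. The mean level of the list, against all 8 embryos, was -0.01, -0.03, -0.16, -0.23 and -0.22 in null embryos 1 to 5, and 0.45, -0.07 and 0.26 in wild type embryos 1 to 3. Proliferation genes had 14 of 17 differences over 0 (median 0.13), with the mitotic kinases Aurkb at 0.29 and Cdk1 at 0.14 (limma adjusted p = 0.744 and 0.755). Macrophage and leukocyte markers had 9 of 9 over 0, none of which passed, with summed signals of 1451 to 4795 in null embryos and 1778 to 2788 in wild type embryos, and their part in these results was not tested.

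The arrays had a trimmed mean signal of 500.2 each and medians of 134.8 to 145.6. The targeted gene E2f4, with 1 probe set, had 166 ± 17.6 (SD, n = 5) in null embryos and 214 ± 6.47 (SD, n = 3) in wild type embryos (limma adjusted p = 0.363), with no overlap between the groups, and a probe set outside the removed part would check nothing. Fibroblast markers, 11 of 11 past the filter, summed to 84460 to 92160 in null embryos and 90357 to 94059 in wild type embryos. The brightest markers carry most of this sum. Of the dimmer ones, Lum ranged from 133 to 1408 in null embryos and from 81.8 to 2220 in wild type embryos. Pdgfra ranged from 197 to 1368 and from 191 to 1200. The endothelial gene Pecam1 and the epithelial gene Epcam had at most 16.2 and 9.89 in null embryos, and 9.76 and 12.8 in wild type embryos. Other markers of those lists were measured above the filter. The keratin gene Krt19 had 324 ± 89.2 (SD, n = 5) in null embryos and 222 ± 64.9 (SD, n = 3) in wild type embryos, and Krt18 had 148 ± 56.4 (SD, n = 5) in null embryos and 116 ± 69.1 (SD, n = 3) in wild type embryos. The VEGF receptor gene Flt1 had 290 ± 109 (SD, n = 5) in null embryos and 351 ± 107 (SD, n = 3) in wild type embryos. The adjusted p in limma was 0.593, 0.796 and 0.82 for these 3. The cartilage collagen gene Col2a1 had 550.2 ± 58.5 (SD, n = 5) in null embryos and 437 ± 56.1 (SD, n = 3) in wild type embryos, without overlap (log2 difference 0.33, limma adjusted p = 0.429). The share of all genes without overlap on the higher side is not given here. Other cartilage and bone markers did not share this. Acan differed by -0.42 and Sox9 by 0.0016, both with overlap (limma adjusted p = 0.659 and 0.996). Under the filter, Sp7 differed by -0.28, with null embryos below wild type, and Alpl and Ibsp by -0.11 and -0.15 with overlap.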

How the data were processed

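Each of the 20 cultures was measured on 1 Affymetrix array. The authors deposited linear intensity values per probe set, and per the submitters' processing notes the tool was MAS5. How it was set is not stated there. The mean without the 2% at each end was equal on all arrays, so a change shared by all genes cannot be seen. The number of arrays and embryos limits the precision. Of 22690 probe sets, 20380 had 1 symbol in the platform annotation, 691 several, 1555 were unlisted and 64 were controls. Current symbols came from RefSeq (GRCm38.p6) by gene identifier, and 20351 matched.

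Values were converted to log2(signal + 16), an offset close to the 20th percentile (15.7), then 1 mean per embryo was taken. Low genes change by more than this scale shows. A gene's probe set of highest mean stood for it, and genes under the 40th percentile were left out, which kept 7436 of 12393 genes and all 9 described. SEs in the text are those of limma's fit to every probe set for the 9 genes and of the gene fit for others. All comparisons used limma 3.58.1 under R 4.3.3 (eBayes with trend, two-sided, Benjamini-Hochberg, threshold 0.05).

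The fits were tested on simulated data. The genes, lists and tests were chosen with earlier results of these data known. Named genes are all 9, E2f4, the 2 of each pathway list with the smallest p, and the 5 most like Id1. Inhba, Msx1 and Bmp2 were named after their values were seen. So were the marker genes Acta1, Des, Myod1, Myf5, Pecam1, Epcam, Krt18, Krt19, Flt1, Col2a1, Acan, Sox9, Sp7, Alpl, Ibsp, Lum and Pdgfra. Alternatives covered the pseudocount, filter, normalization, probe sets, cultures, variance model, replicate blocks and each embryo left out.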

Additional observations from a re-analysis of the deposited data

Results flagged for a closer look

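With a test for a stray value among the 5 null embryos of each of the 13 probe sets, 2 probe sets stood out, both through null embryo 2. Its Id3 signal of 3369 was the highest of the null embryos, of which the others lay between 2383 and 2458. Its Tgfb1i1 signal of 3264 was likewise the highest, with the others between 2297 and 2533. Chance marks about 1 in 20 groups in such a test. The share of all probe sets that stood out was not counted, so nothing particular to Id3 and Tgfb1i1 is read from this.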

How the results depend on the processing

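The log2 differences of the 9 genes moved by less than the spread between embryos (1 SD) under all 19 alternatives run. That of Id1 lay between -0.88 and -0.67, and those of Id3 and Smad7 moved by less than 1.5 times. Without wild type embryo 2 the value was -0.55 for Id2, -0.54 for Id4, -0.38 for Smad6, -0.37 for Bmp4 and -0.01 for Tgfb1i1. Without wild type embryo 3 it was -0.18 for Id4, -0.14 for Smad6, 0.01 for Bmp4, 0.09 for Bambi and -0.20 for Tgfb1i1. Without null embryo 2 it was -0.20 for Id4, -0.07 for Bmp4 and -0.16 for Tgfb1i1. Without null embryo 1 Bmp4 was at -0.10, without null embryo 5 at -0.31 (Tgfb1i1 -0.04), and Tgfb1i1 was at -0.03 without wild type embryo 1. With the embryo number as a replicate block Bmp4 was at -0.47 and Tgfb1i1 at -0.0049. The count of genes called between genotypes was 1, and it was 0 in the fit of every probe set, in that of cultures 1 and 2 alone, and with a replicate block for the embryo number. It was 80 over cultures with embryos as random effects and 38 when the culture number was added as a replicate block, and Id1 and Id3 were called in both. With an embryo left out it ran from 0 to 11. It was 11 without wild type embryo 2, and 2, Id1 among them, without null embryo 2. The 9 genes were chosen with this contrast known, so nothing is read from these calls of Id1 and Id3. Same-numbered embryos deviated together at r = 0.09, 0.64 and 0.42 across genes, and wild type embryo 3 correlated better with null embryo 5 (0.64), so the numbers were not taken as pairs, and in that block null embryos 4 and 5 have no partner. Genes called between null embryos numbered 1704, and 990 to 1729 with an embryo left out. Genes called between wild type embryos numbered 3722. They were 5747 of every probe set, 2186 from cultures 1 and 2, and 1121 to 3391 with an embryo left out. With null embryo 2 or wild type embryo 2 left out, 2 of the 9 genes were called among the embryos of that genotype, against 7. Over all 7436 genes these fits called 990 and 1121, against 1704 and 3722, so fewer calls were not particular to the 9. Without null embryos 2 and 4, the correlation of deviations with Id1 turned to 0.83 for Id4, 0.90 for Smad6, -0.69 for Smad7, 0.69 for Bmp4, -0.63 for Bambi and -0.43 for Tgfb1i1. With 1 embryo left out it ran from -0.58 to 0.43 for Id4, -0.38 to 0.50 for Smad6, -0.61 to 0.17 for Bmp4, -0.60 to 0.69 for Bambi and -0.36 to 0.80 for Tgfb1i1. Of these reversals all but 1 of Smad6 (0.04 without null embryo 4) came without null embryo 2. The cause was not tested.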
